A study of Mus musculus with 9 samples.

Results

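The genes described here are 36 cell cycle genes of C2C12 myotubes, chosen by name as markers of DNA replication and mitosis. All 36 were among the 22831 genes of the deposited count table. By role they were grouped into 12 replication genes, 6 cyclin and Cdk1 genes and 18 mitotic genes. C2C12 is a mouse myoblast line that fuses into multinucleated myotubes in low horse serum, and all samples are of this 1 line, labelled wild type. The labels give the cell type as myoblasts and the protocol describes myotubes. Each of 3 groups had 3 stranded mRNA libraries. The control was untreated, the second group was given palmitic acid at 200 µM, and the other received the same dose together with carnitine at 1000 µM. Palmitic acid is a saturated fatty acid, and carnitine carries long-chain fatty acids into mitochondria. The treatment time is labelled 48 for the treated groups with a unit that cannot be read, so the unit is not given. For the control the time is given as 0, and no vehicle is named. Nothing in the labels says that the replicates came from separate cultures, so the p-values cover only the spread between these libraries.

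Before DNA is copied, the Mcm helicase is loaded onto replication origins with the help of Cdc6 and Cdt1. The clamp Pcna then holds the polymerase on the template while ribonucleotide reductase and thymidylate synthase supply the nucleotides. Cyclins E and A with their kinases drive S phase, and cyclin B with Cdk1 drives mitosis, in which Aurora and Polo-like kinases, kinesins and the spindle checkpoint separate the chromosomes. Replication genes are classic targets of E2F factors, which the retinoblastoma family holds back in resting cells. Many mitotic genes are controlled through a promoter element called CHR, often with CCAAT boxes that bind NF-Y. Nuclei of myotubes have left the cell cycle for good, while C2C12 cultures keep some unfused cells that can still divide, so in RNA from the whole dish fewer cycling cells and less RNA per cycling cell cannot be told apart.

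The promoters of the 2 main classes differ in sequence, and 6 of them are shown, all of genes with values in full below. The first 5 were chosen with their matches known, as examples of genes that hold a motif, and Birc5 as one that holds neither motif; further windows of genes described below are not printed. Each window runs 5′ to 3′ on the gene's own strand, from 250 bases before the RefSeq start to 50 bases after it (300 bases, GRCm38.p6). Capitals mark matches to TTTNNCGC, the E2F-type motif, in Mcm3 and Mcm5, and to TTTGAA, the CHR-type motif, in Mcm2, Plk1 and Bub1b. The windows are Mcm3 at chr1:20820263-20820562 on the minus strand, Mcm5 at chr8:75109259-75109558 on the plus strand, Mcm2 at chr6:88898731-88899030 on the minus strand, Plk1 at chr7:122159185-122159484 on the plus strand, Bub1b at chr2:118597961-118598260 on the plus strand and Birc5 at chr11:117848987-117849286 on the plus strand.
Mcm3: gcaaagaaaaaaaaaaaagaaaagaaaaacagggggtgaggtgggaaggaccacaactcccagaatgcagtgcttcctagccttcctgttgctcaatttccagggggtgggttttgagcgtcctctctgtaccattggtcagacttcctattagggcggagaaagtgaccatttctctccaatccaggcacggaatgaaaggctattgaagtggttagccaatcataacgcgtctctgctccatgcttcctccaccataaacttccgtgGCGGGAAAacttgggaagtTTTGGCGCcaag
Mcm5: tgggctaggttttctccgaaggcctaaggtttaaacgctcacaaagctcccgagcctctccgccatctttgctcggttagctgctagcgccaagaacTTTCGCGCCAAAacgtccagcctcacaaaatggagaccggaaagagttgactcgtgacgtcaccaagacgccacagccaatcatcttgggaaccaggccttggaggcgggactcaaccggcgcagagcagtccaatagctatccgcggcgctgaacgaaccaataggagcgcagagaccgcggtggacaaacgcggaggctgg
Mcm2: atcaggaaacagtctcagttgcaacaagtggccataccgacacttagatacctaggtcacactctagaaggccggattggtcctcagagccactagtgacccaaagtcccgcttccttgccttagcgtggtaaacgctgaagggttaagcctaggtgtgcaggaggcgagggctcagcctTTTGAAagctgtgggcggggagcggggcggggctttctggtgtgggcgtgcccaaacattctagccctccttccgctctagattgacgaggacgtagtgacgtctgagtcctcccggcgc
Plk1: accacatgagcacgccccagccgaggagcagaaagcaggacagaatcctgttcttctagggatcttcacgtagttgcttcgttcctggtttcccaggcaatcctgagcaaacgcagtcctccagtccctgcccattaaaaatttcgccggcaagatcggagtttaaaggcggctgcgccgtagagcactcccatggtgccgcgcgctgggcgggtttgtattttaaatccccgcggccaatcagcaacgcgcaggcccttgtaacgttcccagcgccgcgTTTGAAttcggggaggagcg
Bub1b: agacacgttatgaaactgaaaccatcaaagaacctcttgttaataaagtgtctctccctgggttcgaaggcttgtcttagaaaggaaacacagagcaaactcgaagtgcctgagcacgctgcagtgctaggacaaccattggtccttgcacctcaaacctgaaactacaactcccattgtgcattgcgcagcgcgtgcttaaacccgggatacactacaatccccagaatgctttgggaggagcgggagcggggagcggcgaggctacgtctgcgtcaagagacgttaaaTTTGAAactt
Birc5: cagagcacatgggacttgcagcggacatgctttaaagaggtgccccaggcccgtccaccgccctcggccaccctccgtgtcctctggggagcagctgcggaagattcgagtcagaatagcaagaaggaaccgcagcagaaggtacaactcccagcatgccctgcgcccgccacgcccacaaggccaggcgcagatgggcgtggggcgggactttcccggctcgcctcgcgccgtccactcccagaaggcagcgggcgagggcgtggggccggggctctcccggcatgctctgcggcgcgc

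In the Mcm3 window the match on the other strand, GCGGGAAA, lay 19 to 26 bases after the start and TTTGGCGC lay 38 to 45 bases after it. In the Mcm5 window TTTCGCGC lay 153 to 146 bases upstream and overlapped GCGCCAAA, a match on the other strand, at 149 to 142 bases upstream. The Mcm2 window held no TTTNNCGC and held TTTGAA 70 to 65 bases upstream. TTTGAA lay 30 to 35 bases after the start in Plk1 and 40 to 45 bases after it in Bub1b.

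RefSeq windows were matched for 30 of the 36 genes, 2 of them (Mcm7 and Prc1) with 2 windows, and Ccne2, Kif20a, Tpx2, Aurkb, Ccna2 and Mcm4 were not matched. On either strand, TTTNNCGC was found for 7 of 11 replication genes (63.6%), 1 of 4 cyclin and Cdk1 genes (Cdk1) and 0 of 15 mitotic genes, against 5.93% of all 27025 genes with a window. TTTGAA was found for 11 of 15 mitotic genes (73.3%), 2 of 4 cyclin and Cdk1 genes and 1 of 11 replication genes (Mcm2), against 20.2% of all genes. CCAAT was found for 8 of 11 replication genes, 3 of 4 cyclin and Cdk1 genes and 13 of 15 mitotic genes, against 41.1% of all genes. Exceptions stood in both classes: Mcm2, Pcna, Rrm1 and Rrm2 held no TTTNNCGC, and Bub1, Cenpe, Birc5 and Nusap1 held no TTTGAA. A match is a string of letters and not a shown binding site. In addition 6 other spellings were searched. Those of the E2F type were TTTGGCGC, TTTCCCGC, TTCCCGCC, the shorter form GCGGGAA and the palindrome GGCGCC, several of which overlap the first motif, and the other CHR spelling was TTCGAA. TTTGGCGC was found for 4 of 11 replication genes (0.585% of all genes), TTTCCCGC for 3 (1.24%), TTCCCGCC for 2 (2.52%) and GCGGGAA for 5 (5.29%), each with 0 of 15 mitotic genes. GGCGCC was found for 2 of 11 replication genes (18.2%) and 2 of 15 mitotic genes (13.3%), against 13.4% of all genes. TTCGAA was found for 1 of 11 replication and 3 of 15 mitotic genes, against 1.8% of all genes.

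**Figure D1:**
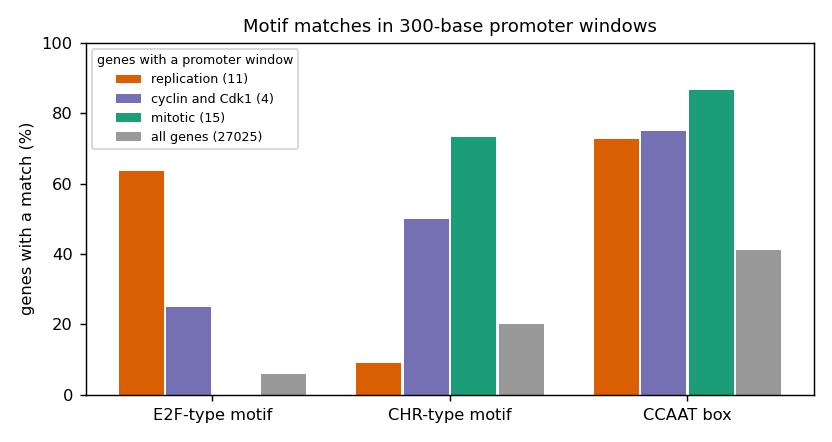
Share of genes (%) whose 300-base RefSeq promoter window holds TTTNNCGC (E2F type), TTTGAA (CHR type) or CCAAT on either strand, for replication (11), cyclin and Cdk1 (4), mitotic (15) and all genes (27025). The E2F-type motif stands at 63.6% of replication genes and 0 mitotic genes, and the CHR-type motif at 73.3% of mitotic genes.

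Library totals ran from 2.31 to 5.14 M counts, the highest being palmitic acid replicate 1. The 12 replication genes together had 414 to 1735 counts per library, so single genes rest on few counts. Many genes of this table share their DNA with a gene on the other strand, and the counting's strand setting is not given in the sources used here. The ratio of counts on protein-coding genes without an opposite-strand gene to counts on noncoding genes lying opposite coding exons is therefore given for each library. It was 0.685, 0.633 and 1.18 in control replicates 1, 2 and 3, then 3.48, 1.21 and 1.22 in palmitic acid and 0.831, 0.653 and 0.701 in palmitic acid + carnitine. Control replicate 3 stood beside the palmitic acid libraries and palmitic acid replicate 1 stood apart from all others, so results are also given without these 2 libraries. They were picked from these same data, so calls in fits without them are not independent support. Without control replicate 3 the controls had ratios of 0.685 and 0.633, and every palmitic acid library had 1.21 or more. Ratio and treatment cannot be told apart in those fits. The part of this ratio in the results below was not tested other than by those values and by the fits named with them.

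Of the 36 genes, 28 have no annotated gene opposite an exon and 8 have one. The partners are Cops6 and Ap4m1 for Mcm7, Ints8 for Ccne2, Exosc9 for Ccna2, Gm44985 for Plk1, Cdc23 for Kif20a, Elovl1 for Cdc20, Rccd1 for Prc1 and Oip5 for Nusap1. By mean FPKM over the 9 libraries, the length-scaled unit of the table, the highest was Rrm2 at 22.5, the small subunit of ribonucleotide reductase, which has no such partner. Next came Kif20a at 22.0, Ccna2 at 15.1, Cdc20 at 12.0, Mcm7 at 11.2, Ccne2 at 10.6, Prc1 at 9.00 and Plk1 at 6.19, all with a partner. The highest levels after Rrm2 were thus all of genes whose reads may be mixed with those of another gene. Among genes without a partner the order went on with Pcna at 4.77, Ccnb2 at 4.67 and Mki67, the classic proliferation marker, at 4.27 FPKM. It ended with Bub1 at 0.315, Kif11 at 0.309 and Cdc6 at 0.276 FPKM. Neighbours in this order overlapped widely: Pcna ranged from 1.53 to 10.5 FPKM over the libraries, Ccnb2 from 1.99 to 8.01 and Mki67 from 3.41 to 6.31.

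Palmitic acid was compared with control to ask how the fatty acid changes the myotubes' expression. No cell cycle gene passed edgeR's quasi-likelihood test at an adjusted p under 0.05, and neither did any of the 12548 genes tested (0%). The median log2 fold change was 0.48 over the 11 replication genes tested, led by helicase subunits, with 1.05 when control replicate 3 and 0.25 when control replicate 2 was left out. It was -0.52 over the 6 cyclin and Cdk1 genes and 0.13 over 16 mitotic genes, which lay far apart on both sides of 0. The median of all tested genes was 0.06, with 0.27 for protein-coding genes without an opposite-strand gene and -0.38 for all other genes. Those others include noncoding genes and genes not matched to the annotation, so they are not only genes with a partner. Shares and medians given below for all genes without a partner cover coding genes alone. At an unadjusted p under 0.05, 6 of the 33 tested cell cycle genes were higher (5.67% of all genes) and 5 were lower (13.9% of all genes). Over all 33, 20 had a log2 fold change above 0 (53.2% of all genes). Groups did not overlap for 6 on the higher side (11.7% of all genes) and 2 on the lower side (10.9%). Among the 25 without an opposite-strand gene these numbers were 5 (16.7% of all such genes) and 0 (3.56%).

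Among replication genes, Mcm2, a subunit of the replicative helicase, had the smallest p (chromosome 6, 88860456 to 88875762 on GRCm39, the build of all gene positions below). Its level was 13.3, 10.3 and 24.2 CPM (counts per M counts, TMM-scaled) in control replicates 1, 2 and 3 and 29.2, 26.6 and 32.1 CPM in palmitic acid. All 3 palmitic acid libraries lay above all 3 controls, with control replicate 3 nearest to them. The means were 15.9 ± 7.33 and 29.3 ± 2.76 CPM (SD, n = 3 in each group). The log2 fold change was 0.85 ± 0.32 (SE), with an unadjusted p of 0.0182 and an adjusted p of 0.187 in edgeR. Without control replicate 3 it was 1.32 ± 0.30 and passed (adjusted p = 0.0325, where 1.35% of 12815 genes were called higher). Without that library and palmitic acid replicate 1 it was 1.32 ± 0.37 (adjusted p = 0.0108, where 6.18% of 12351 genes were called higher). The log2 fold change was smaller, and did not pass, without control replicate 1 (0.76 ± 0.35, edgeR adjusted p = 0.452) or control replicate 2 (0.64 ± 0.32, adjusted p = 0.504).

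Mcm5, another helicase subunit (chromosome 8, 75836197 to 75855067), read 0.982, 4.72 and 9.22 CPM in control and 18.5, 8.03 and 13.8 CPM in palmitic acid. The groups overlapped through control replicate 3. The difference was 1.36 ± 0.56 on the log2 scale, with an edgeR adjusted p of 0.210, and 1.89 ± 0.67 (adjusted p = 0.0467) without control replicate 3 and palmitic acid replicate 1. Mcm3 (chromosome 1, 20873192 to 20890536) read 5.89, 9.43 and 10.4 CPM in control and 18.6, 13.6 and 15.5 CPM in palmitic acid. Its groups did not overlap, and the log2 difference was 0.88 ± 0.38 (edgeR adjusted p = 0.237). Without the same 2 libraries Mcm3 differed by 0.91 ± 0.50 (adjusted p = 0.219).

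The other helicase genes without a partner, Mcm4 and Mcm6, stood at 0.74 ± 0.56 and 0.48 ± 0.37, and the clamp Pcna at 0.55 ± 0.50. Of the genes of nucleotide supply, Rrm1, the large reductase subunit, stood at -0.00 ± 0.47 on the log2 scale, Rrm2 at -0.18 ± 0.23 and Tyms, the thymidylate synthase, at 0.19 ± 0.86. The licensing factor Cdt1 was at 0.23 ± 0.51. Mcm7, with Ap4m1 and Cops6 on the other strand, was the lowest of the class at -0.52 ± 0.33. None of these 8 passed, and the groups of each overlapped. Mcm7 was called lower without control replicate 3 and palmitic acid replicate 1 (-0.67 ± 0.24, edgeR adjusted p = 0.0473, where 13% of 12351 genes were called lower). Of the 10 tested replication genes without a partner, 8 had a log2 fold change above 0, against 72.9% of all such genes, and their median was 0.51 beside 0.27. Fitted among such genes alone (5920 tested) Mcm2 stood at 0.61 ± 0.29 (adjusted p = 0.441), Mcm5 at 1.11 ± 0.48 and Mcm3 at 0.60 ± 0.37, and the class median was 0.24.

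Among the cyclins, the 2 with an opposite-strand gene had the smallest p. Ccna2, the S phase and G2 cyclin (chromosome 3, 36619014 to 36626299), read 93.8, 111 and 45.5 CPM in control and 21.3, 37.9 and 45.0 CPM in palmitic acid. Every palmitic acid library lay below every control, although control replicate 3 and palmitic acid replicate 3 were nearly level. The log2 fold change was -1.27 ± 0.37, with an edgeR adjusted p of 0.143. Exosc9, a subunit of the RNA exosome that overlaps Ccna2 by 510 bp of exon on the other strand, differed by -1.98 ± 0.52 across the same libraries.

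Ccne2, an S phase cyclin (chromosome 4, 11191351 to 11204779), read 71.2, 78.0 and 18.2 CPM in control and 4.00, 15.8 and 20.3 CPM in palmitic acid. Control replicate 3 lay among the palmitic acid libraries, so the groups overlapped. The log2 difference was -2.09 ± 0.61 (edgeR adjusted p = 0.143), and for Ints8, opposite Ccne2 over 609 bp, it was -0.43 ± 0.37. With DESeq2's test Ccna2, Ccne2 and Kif20a had adjusted p-values of 0.0498, 0.0382 and 0.0367, where 3.36% of all genes were called lower. Without control replicate 3 and palmitic acid replicate 1, Ccna2 fell by 1.30 ± 0.24 (edgeR adjusted p = 0.000281) and Ccne2 by 2.04 ± 0.34 (adjusted p = 6.62e-05) on the log2 scale, in a fit that called 13% of 12351 genes lower. With the library ratio as a covariate the edgeR differences were -0.30 ± 0.29 for Ccna2 and -0.15 ± 0.39 for Ccne2, and neither passed. For palmitic acid against control that fit is given here only for Ccna2, Ccne2, Kif20a and Prc1, all with a partner. How it moves the genes on the higher side, such as Mcm2, or the class medians is not given. Ccnb1, the mitotic cyclin (chromosome 13, 100915158 to 100923078), read 3.44, 8.57 and 10.7 CPM in control and 3.61, 2.22 and 7.45 CPM in palmitic acid. Its groups overlapped and it differed by -0.80 ± 0.76 (edgeR adjusted p = 0.561). Ccnb2, Cdk1 and Ccne1, all without a partner, stood at -0.08 ± 0.49, -0.25 ± 0.37 and 0.52 ± 0.63 with overlapping groups, and Ccne1 at -0.06 ± 0.73 without palmitic acid replicate 3.

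The mitotic genes split. Kif20a, a kinesin of cytokinesis (chromosome 18, 34757666 to 34766330), read 178, 156 and 78.9 CPM in control and 26.3, 63.4 and 70.2 CPM in palmitic acid. All palmitic acid libraries were lower than all controls, and palmitic acid replicate 1 was the lowest. The log2 difference was -1.37 ± 0.38 (edgeR adjusted p = 0.141), and for Cdc23, an anaphase-promoting complex subunit opposite it over 1271 bp, it was -1.18 ± 0.43. Prc1, which bundles the microtubules of the central spindle (chromosome 7, 79944198 to 79966007), read 136, 120 and 64.0 CPM in control and 26.6, 66.2 and 54.4 CPM in palmitic acid. Its groups overlapped narrowly, and it differed by -1.12 ± 0.36 (edgeR adjusted p = 0.157). Rccd1, opposite Prc1 over 911 bp, stood at -1.0 ± 0.35. Without control replicate 3 and palmitic acid replicate 1 Kif20a stood at -1.32 ± 0.20 and Prc1 at -1.08 ± 0.21, and both passed (edgeR adjusted p = 2.36e-05 and 0.000522). Without control replicate 3 alone, Ccna2, Ccne2, Kif20a and Prc1 passed on the lower side (4.64% of all genes in that fit). With the library ratio as a covariate Kif20a and Prc1 stood at -0.31 ± 0.24 and -0.17 ± 0.25 and did not pass.

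In the other direction, Plk1, the Polo-like kinase of mitotic entry (chromosome 7, 121758662 to 121769096), read 9.33, 6.86 and 10.1 CPM in control and 17.7, 13.8 and 24.4 CPM in palmitic acid. The groups did not overlap, and the log2 difference was 1.08 ± 0.36 (edgeR adjusted p = 0.170). Gm44985, opposite it over 156 bp, stood at -0.76 ± 0.38, so here the pair had unlike signs. Birc5, the survivin subunit of the chromosomal passenger complex, read 2.46, 3.43 and 3.17 CPM in control and 6.32, 8.58 and 7.45 CPM in palmitic acid. It has no partner and its groups were well apart, with a log2 difference of 1.28 ± 0.50 (edgeR adjusted p = 0.2). Bub1b, the spindle checkpoint kinase BubR1, read 5.40, 5.57 and 5.47 CPM in control and 13.7, 8.86 and 11.2 CPM in palmitic acid. The controls were nearly level and all below the treated libraries, with a log2 difference of 1.04 ± 0.43 (edgeR adjusted p = 0.217). Without control replicate 3 and palmitic acid replicate 1, Plk1 stood at 1.24 ± 0.48, Birc5 at 1.43 ± 0.72 and Bub1b at 0.87 ± 0.63, and none of the 3 passed.

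Kif23, another kinesin of cytokinesis, also had groups apart on the higher side, at 0.67 ± 0.49. Nusap1, a spindle protein opposite the little-counted Oip5 (42 counts in all), stood at -0.96 ± 0.41 and Cdc20, the activator of the anaphase-promoting complex, at 0.71 ± 0.44. Cdc20 stood at 0.29 ± 0.30 without control replicate 1 and at 1.38 ± 0.44 without control replicate 3. It passed on the higher side without control replicate 3 and palmitic acid replicate 1 (1.39 ± 0.43, edgeR adjusted p = 0.0223, where 6.18% of genes were called higher). The widely used proliferation markers stood near 0, with Mki67 at -0.07 ± 0.27 and Top2a, the topoisomerase of dividing cells, at 0.14 ± 0.29. The other 6 mitotic genes tested, Aurka, Aurkb, Cenpa, Cenpe, Cenpf and Tpx2, ran from -0.44 to 0.50 with overlapping groups. Over the 11 mitotic genes without a partner the median was 0.14, below the 0.27 of all such genes. Fitted among genes without a partner alone, that median was -0.14, with 5 of 11 above 0, while Birc5 stood at 1.01 ± 0.57 and Bub1b at 0.75 ± 0.45. The direction of the mitotic class as a whole therefore changed with the scaling.

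**Figure D2:**
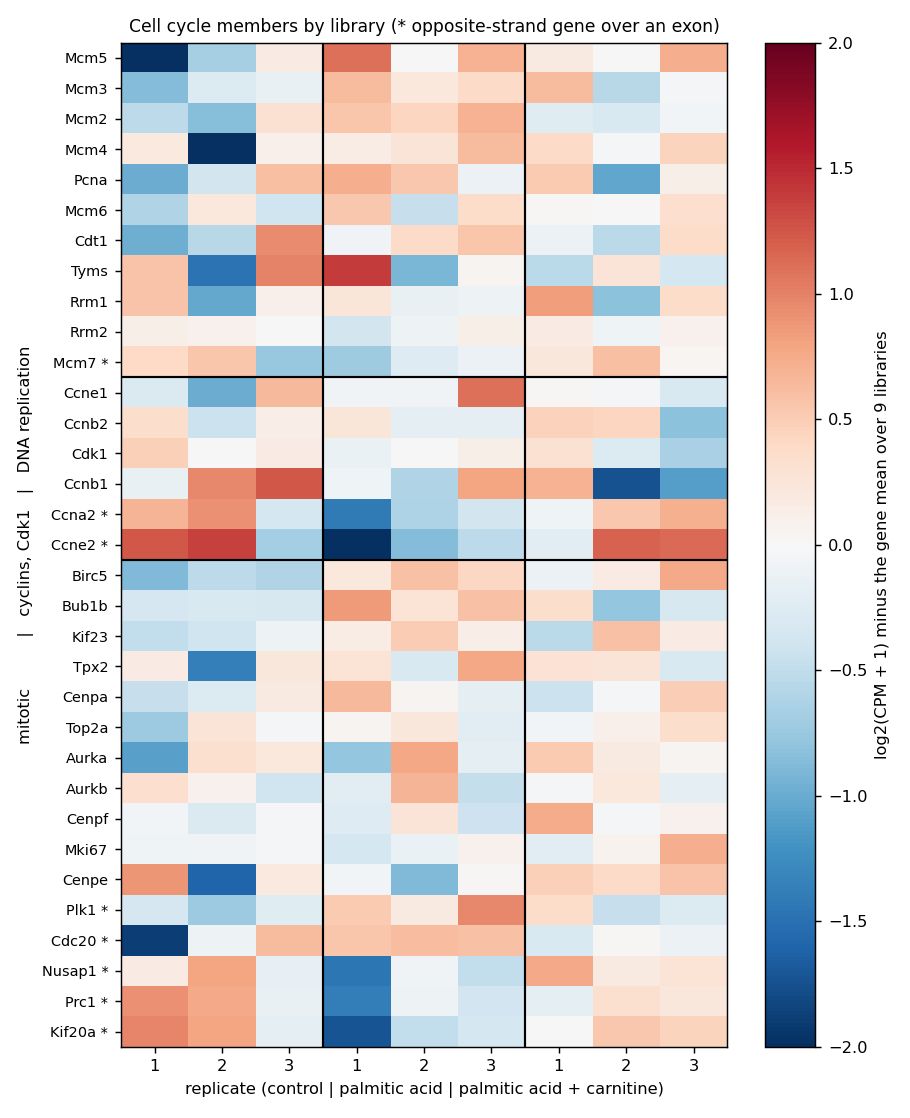
Log2(CPM + 1) of each of the 33 tested cell cycle genes minus its mean over 9 libraries, with replicates in columns by group and genes in rows by class (an asterisk marks an opposite-strand gene over an exon). Mcm2, Mcm3, Birc5 and Bub1b are higher in all 3 palmitic acid libraries than in the controls, whereas Ccna2 and Kif20a are lower.

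**Figure D3:**
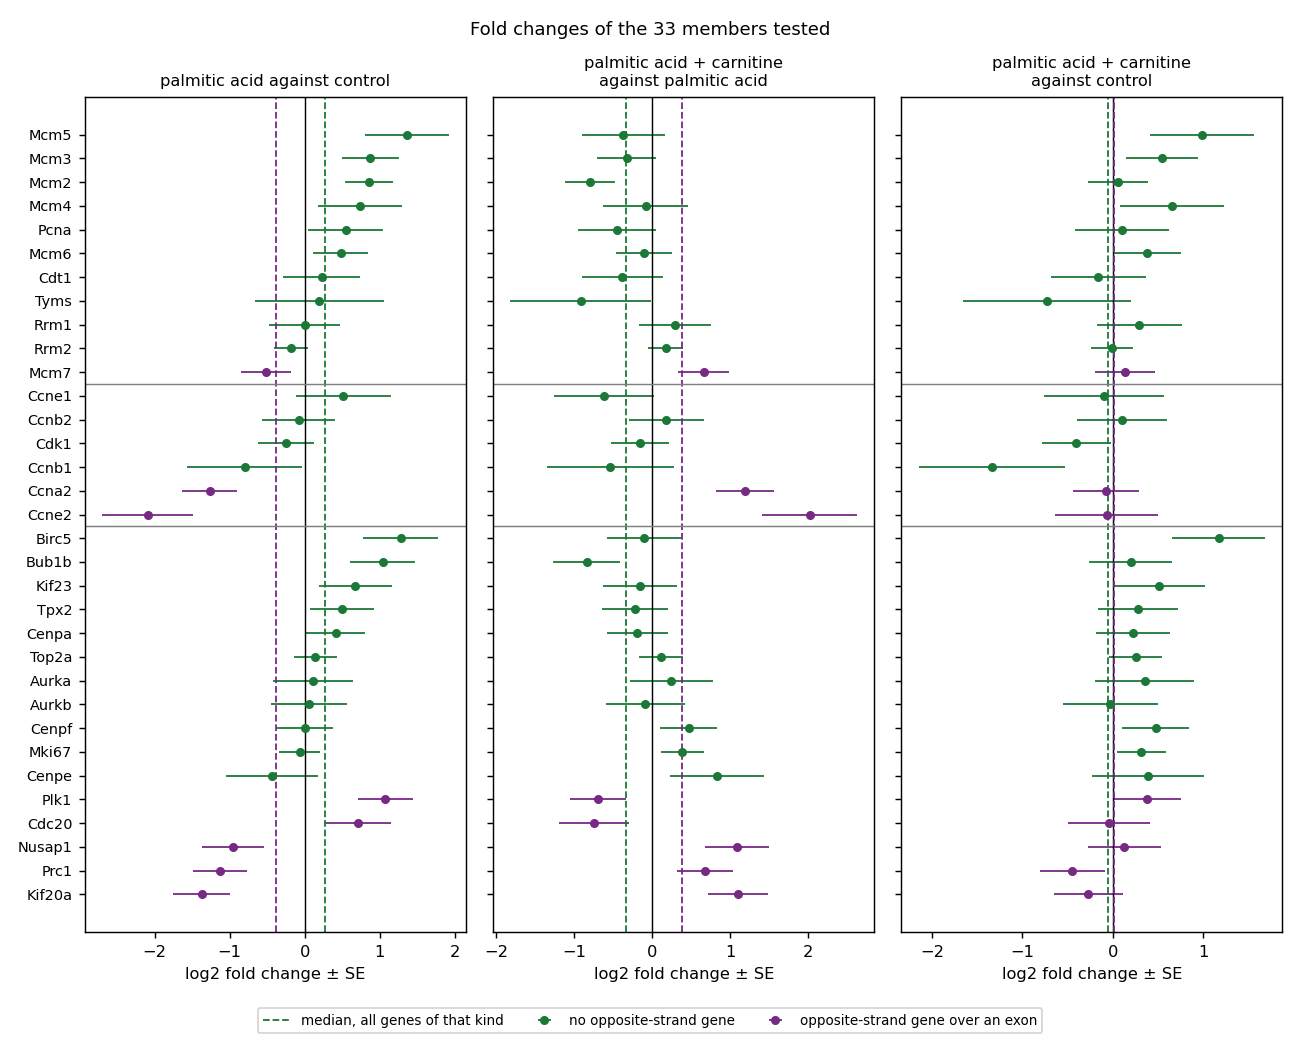
Log2 fold changes (points) with SE (bars) of the 33 tested genes in the 3 comparisons, coloured by whether a gene lies opposite an exon. Dashed lines stand at the median of all coding genes without an opposite-strand gene and at that of all other genes, noncoding and unmatched ones included. Against control, palmitic acid values of the 8 genes with a partner spread from -2.09 to 1.08, and those of palmitic acid + carnitine against palmitic acid from -0.75 to 2.02.

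Genes with a partner and the partner itself were then set side by side. Against control the median log2 fold change with palmitic acid was -1.04 over the 8 genes with a partner and 0.23 over the 25 without. Of 8 tested pairs of gene and partner (Mcm7 has 2 partners and Oip5 was not tested), 6 had the same sign, 5 of them both below 0. For palmitic acid + carnitine against control, 3 of these 8 pairs had the same sign and 5 had opposite signs. The share over all opposite-strand pairs of the table is not given, so these counts have no background beside them. Across libraries Ccna2 tracked Exosc9: Exosc9 read 143, 150 and 37.7 CPM in control, 14.1, 29.4 and 41.0 CPM in palmitic acid and 64.9, 143 and 157 CPM in palmitic acid + carnitine. Control replicate 3 and palmitic acid replicate 1 were low in both genes. Cdc23 and Rccd1 had their lowest value, 54.8 and 61.0 CPM, in palmitic acid replicate 1, where Kif20a and Prc1 were also lowest. Partner totals over the 9 libraries exceeded those of the cell cycle gene for Mcm7 (10827 counts of Ap4m1 against 1372), Kif20a (7016 against 2503 counts), Prc1 (4941 against 1979), Ccna2 (1991 against 1634) and Plk1 (2643 against 429). How many of the reads of such a gene came from the other strand was not tested.

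**Figure D4:**
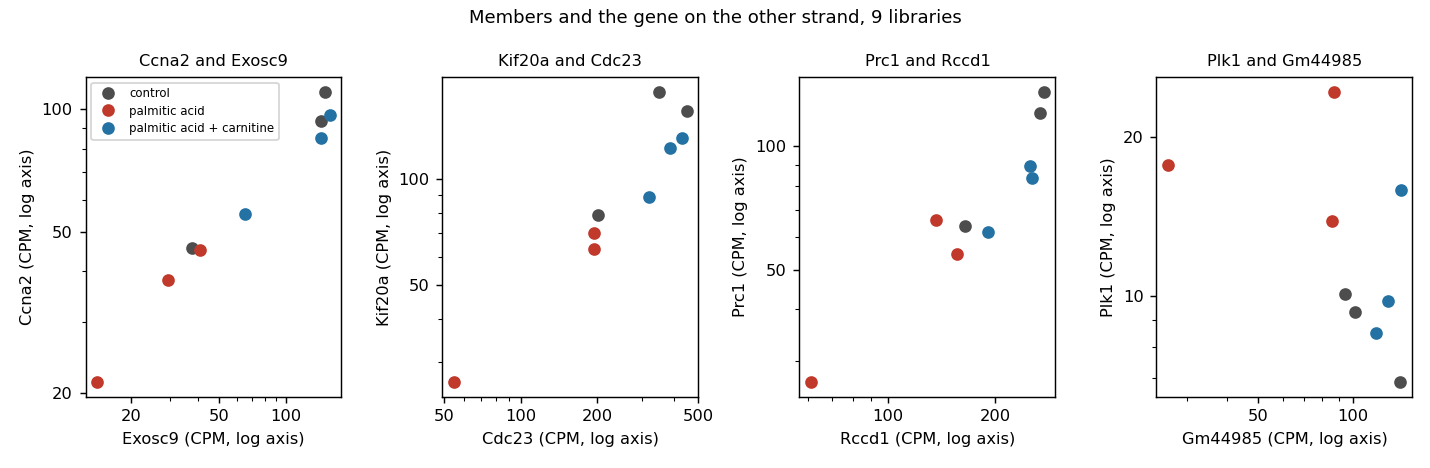
CPM (log axes) of Ccna2, Kif20a, Prc1 and Plk1 against the gene on the other strand in each of the 9 libraries, coloured by group. Ccna2, Kif20a and Prc1 are low where their partner is low, including palmitic acid replicate 1 and control replicate 3, while Plk1 has its 2 highest values in palmitic acid libraries, all 3 of which are low in Gm44985.

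Replication and mitotic genes were compared within each library as the difference of their mean log2 CPM. Over all tested members the replication mean minus the mitotic mean was -0.35, -0.60 and 0.12 in control, 0.47, -0.28 and 0.12 in palmitic acid, and -0.04, -0.47 and -0.12 in palmitic acid + carnitine. The 3 groups overlapped. With genes without a partner alone the difference was -0.09, -0.22 and 0.51 in control, 0.62, -0.03 and 0.45 in palmitic acid, and 0.25, -0.27 and 0.14 in palmitic acid + carnitine. Again no group stood apart. The 10 replication genes alone had mean log2 levels of 3.09, 2.81 and 3.88 in control and 4.11, 3.61 and 3.94 in palmitic acid, and control replicate 3 again lay among the palmitic acid libraries. The 11 mitotic genes read 3.18, 3.04 and 3.37 in control and 3.49, 3.64 and 3.49 in palmitic acid, so all palmitic acid libraries lay above all controls. On this scaling with palmitic acid + carnitine these mitotic genes read 3.54, 3.55 and 3.67, also above every control. All 16 tested mitotic genes read 3.71, 3.72 and 3.85 in control and 3.72, 4.05 and 3.96 in palmitic acid, so these groups overlapped. With palmitic acid + carnitine the 16 read 4.01, 4.02 and 4.10, above every control. Of all genes without a partner, 72.9% had a log2 fold change above 0 with palmitic acid and 43.6% with palmitic acid + carnitine, each against control. Single genes of that kind had groups apart on the higher side in 16.7% and 2.9%. Fitted among such genes alone, the mitotic median with palmitic acid lay below 0, as given above.

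**Figure D5:**
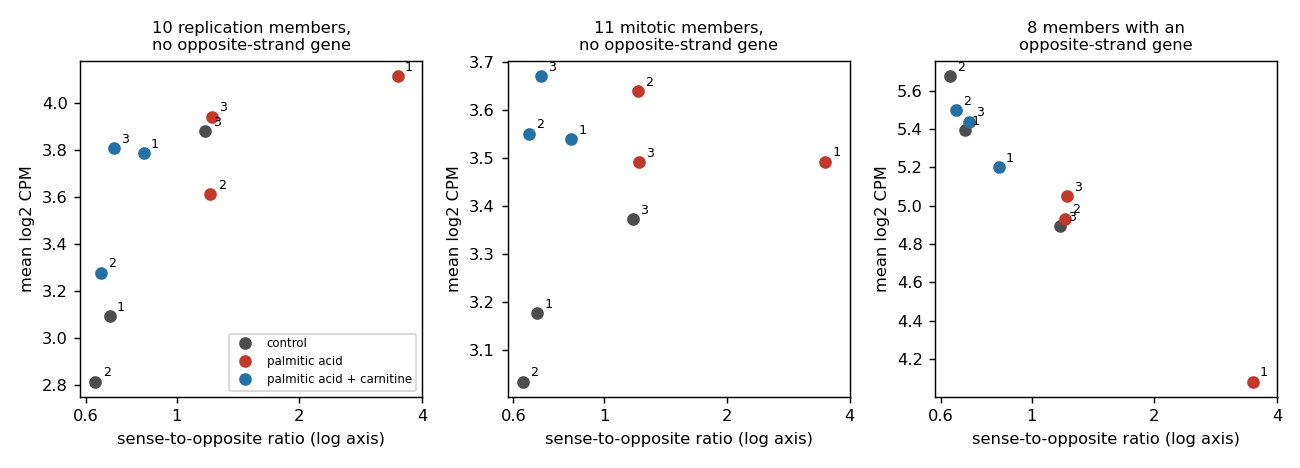
Mean log2 CPM of 10 replication and 11 mitotic genes without an opposite-strand gene and of the 8 genes with one, against the library's sense-to-opposite ratio (log axis), with numbers giving the replicate. Replication genes are lowest in control replicates 1 and 2, and the 8 genes with a partner are lowest in palmitic acid replicate 1. The 11 mitotic genes shown are higher in all 6 treated libraries than in the 3 controls. Over all 16 tested mitotic genes, not shown, palmitic acid and control overlap. Of all genes without an opposite-strand gene, 72.9% had a log2 fold change above 0 with palmitic acid and 43.6% with palmitic acid + carnitine, each against control.

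Adding carnitine to palmitic acid asks whether carnitine changes the response. This comparison shares the palmitic acid libraries with the one above, so values on opposite sides of 0 are partly fixed by the shared samples. No cell cycle gene passed, and no gene of all 12548 did (0%). The medians were -0.33 for replication, 0.01 for cyclin and Cdk1 and 0.01 for mitotic genes, beside -0.10 for all genes. The replication median was -0.01 when only genes without a partner were fitted and 0.13 with the library ratio as a covariate, so its sign was not kept. At an unadjusted p under 0.05, 4 cell cycle genes were higher (15.9% of all genes) and 1 was lower (8.34%). Groups did not overlap for 6 on the higher side (20% of all genes) and 2 on the lower side (18.3%). Among the 25 genes without a partner these numbers were 1 (3.35% of all such genes) and 1 (25.9%).

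Mcm2 read 16.2, 15.6 and 18.7 CPM in palmitic acid + carnitine. All 3 were below every palmitic acid library and within the range of the controls. The log2 difference from palmitic acid was -0.80 ± 0.32 (edgeR adjusted p = 0.166), and without palmitic acid replicate 1 and control replicate 3 it was -0.80 ± 0.31 (adjusted p = 0.0919). Fitted among genes without a partner it was -0.46 ± 0.29. Mcm7 read 57.3, 74.1 and 50.1 CPM, above the 29.4, 40.7 and 45.0 CPM of palmitic acid, with a log2 difference of 0.66 ± 0.33 (edgeR adjusted p = 0.231). The third by p, Tyms, read 1.73, 3.78 and 2.12 CPM against 9.55, 1.11 and 3.15 CPM in palmitic acid. It overlapped, at -0.92 ± 0.90, and without palmitic acid replicate 1 it stood at 0.23 ± 1.04, so its sign rested on that library.

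Ccne2 read 25.2, 68.0 and 65.8 CPM with carnitine, all above palmitic acid, with a log2 difference of 2.02 ± 0.61 (edgeR adjusted p = 0.125). Ccna2 read 55.2, 85.0 and 96.8 CPM, also above every palmitic acid library, with a difference of 1.19 ± 0.37 (edgeR adjusted p = 0.127). Exosc9 differed by 2.12 ± 0.52 and Ints8 by 0.79 ± 0.37 in the same comparison. These 2 cyclins passed with DESeq2 (adjusted p = 0.0298 and 0.0387, where 5.44% of all genes were called higher). In this comparison DESeq2 gave no adjusted p to many cell cycle genes, among them Mcm2, Bub1b, Plk1 and Nusap1. The share counts genes without an adjusted p as not called, so it is lower than the share among genes that could be called. Without palmitic acid replicate 1 and control replicate 3 they stood at 1.53 ± 0.32 and 0.92 ± 0.22 (edgeR adjusted p = 0.00123 and 0.00572, with 11% of genes called higher). With the library ratio as a covariate Ccne2 stood at -0.02 ± 0.36. Ccne1, the partnerless cyclin E, read 4.49, 4.25 and 3.4 CPM against 4.13, 4.15 and 10.6 CPM. It overlapped, at -0.61 ± 0.64, and at -0.03 ± 0.74 without palmitic acid replicate 3.

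Kif20a read 88.7, 131 and 123 CPM with carnitine, above every palmitic acid library. The log2 difference was 1.11 ± 0.38 (edgeR adjusted p = 0.140), beside 1.36 ± 0.43 for Cdc23. Without palmitic acid replicate 1 and control replicate 3 Kif20a stood at 0.76 ± 0.19 and passed (edgeR adjusted p = 0.00549). Nusap1 read 27.3, 17.9 and 19.1 CPM against 5.16, 15 and 10.9 CPM, groups that did not overlap, with a difference of 1.09 ± 0.41 (edgeR adjusted p = 0.154). Bub1b read 9.32, 3.78 and 5.52 CPM and overlapped palmitic acid through replicate 1, at -0.84 ± 0.43 (edgeR adjusted p = 0.239). Of the 8 pairs, 5 had the same sign, all above 0, and 3 had opposite signs. Over the 25 genes without a partner 8 were above 0 (23.3% of all such genes) and the median was -0.16, beside -0.34 for all such genes.

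Palmitic acid + carnitine against control compares the double treatment with no treatment, and the sense-to-opposite ratios of 5 of these 6 libraries lay between 0.633 and 0.831. No cell cycle gene passed, and 0% of all genes did. The medians were 0.14 for replication, -0.09 for cyclin and Cdk1 and 0.27 for mitotic genes, beside -0.02 for all genes. Of 16 mitotic genes, 12 were above 0 (47.8% of all genes), and among those without a partner 10 of 11 were (43.6% of such genes). Groups did not overlap for 2 cell cycle genes, both higher (3.69% of all genes), and 0 were lower (4.84%). Both are without a partner, where 2.9% of genes were apart on the higher and 6.25% on the lower side. At an unadjusted p under 0.05, 1 was higher (0.877% of all genes) and 0 were lower (1.88%).

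These 2 were Birc5 and Cenpf, a kinetochore protein. Birc5 read 4.83, 6.14 and 9.76 CPM with carnitine, all above the controls, at 1.17 ± 0.51 on the log2 scale (edgeR unadjusted p = 0.0392, adjusted p = 1.0). Cenpf read 10.3, 8.57 and 10.4 CPM in control and 18.6, 10.4 and 11.5 CPM with carnitine, at 0.48 ± 0.37. The highest control and the lowest carnitine library of Cenpf were thus level after rounding. Prc1 read 61.8, 89.3 and 83.6 CPM, overlapping the controls, at -0.44 ± 0.36.

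Among replication genes Mcm5 read 9.32, 8.03 and 14.0 CPM with carnitine and overlapped control through control replicate 3, at 0.99 ± 0.57 (edgeR unadjusted p = 0.107). Mcm3 read 18.6, 7.56 and 11.5 CPM, at 0.55 ± 0.40. Mcm4, another helicase subunit, read 8.35, 0.857 and 7.78 CPM in control and 9.67, 7.08 and 10.2 CPM with carnitine, at 0.66 ± 0.57, and 0.19 ± 0.42 without control replicate 2. Ccnb1 read 6.90, 0.472 and 1.27 CPM with carnitine, at -1.34 ± 0.81, and overlapped control. Without palmitic acid + carnitine replicate 1 it was -3.03 ± 0.94 (edgeR unadjusted p = 0.00693, adjusted p = 1.0). Cdk1, the mitotic kinase, read 14.2, 9.86 and 11.2 CPM in control and 12.4, 8.03 and 5.94 CPM with carnitine, at -0.40 ± 0.38. Ccna2 and Ccnb2 stood at -0.07 ± 0.36 and 0.10 ± 0.50. None of these passed.

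The filter on low counts removed 3 of the 36 genes. Cdc6, the origin-licensing factor, had 1, 1 and 3 counts in control, 16, 12 and 8 counts in palmitic acid and 0, 0 and 6 counts with carnitine. All palmitic acid libraries were above all controls, also on the CPM scale, at 2.06 to 3.32 CPM against 0.429 to 0.864 CPM, and a library with 0 counts still allows about 3. Bub1, a checkpoint kinase, and Kif11, the spindle-pole kinesin, had 45 and 70 counts over the 9 libraries, with overlapping groups in every comparison. Each of the 33 genes tested passed the filter in at least 3 libraries outside any single group, so none entered through 1 group alone.

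Other cell cycle lists gave the surroundings of these genes, and none of their genes passed in any comparison with all 9 libraries in edgeR. Of 36 tested genes among 45 other replication genes, 0 were higher (5.67% of all genes) and 7 lower (13.9%) with palmitic acid at an unadjusted p under 0.05, with a median of -0.04. The smallest p-values were those of origin recognition subunits. Orc2 (opposite Nif3l1) stood at -1.43 ± 0.34, Orc4 (opposite Mbd5 and Acvr2a) at -1.84 ± 0.51 and Orc3, with no partner, at -1.25 ± 0.40. Orc3 read 59.4, 61.3 and 19.6 CPM in control, 13.2, 22.4 and 23.5 CPM in palmitic acid and 32.4, 56.7 and 41.6 CPM with carnitine. The groups of Orc3 overlapped through control replicate 3. Of the other origin recognition genes, Orc1 (opposite Gm12743) stood at -1.03 ± 0.73 and Orc6 (opposite Vps35) at 0.36 ± 0.41, and Orc5 was not tested, with 41 counts in all. Of 50 tested genes among 64 other mitotic genes, 3 were higher (5.67% of all genes) and 5 lower (13.9%), with a median of 0.00. Cdca8 (opposite 9930104L06Rik), the borealin subunit of the passenger complex, stood at -0.92 ± 0.27, the kinesin Kif18a (opposite Mettl15) at -1.84 ± 0.55 and the centrosome kinase Nek2 (opposite Gm38037) at 1.17 ± 0.39.

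Of 15 condensin and cohesin genes tested, 1 was higher (5.67% of all genes) and 3 were lower (13.9%) at that threshold, with a median of -0.30. Ncapg, a condensin subunit opposite Lcorl, read 27.0, 21 and 8.07 CPM in control, 2.58, 4.15 and 4.30 CPM in palmitic acid and 11.7, 35.4 and 19.1 CPM with carnitine. Palmitic acid libraries were below all others, at -2.35 ± 0.52 against control, while Ncaph, its partner in the complex and with no opposite-strand gene, stood at 1.34 ± 0.60. Among 17 transcription regulators E2f1, the activating E2F, read 9.82, 15.9 and 17.3 CPM in control, 28.0, 20.5 and 21.2 CPM in palmitic acid and 10.7, 13.2 and 17.8 CPM with carnitine. Its palmitic acid libraries lay above all 6 others, at 0.69 ± 0.32 against control (edgeR adjusted p = 0.254) and -0.75 ± 0.32 with carnitine (adjusted p = 0.184). The mitotic activators Foxm1 and Mybl2 stood at 0.10 ± 0.39 and 0.21 ± 0.61. The repressor Rb1 (opposite Rcbtb2 and Lpar6), its relative Rbl2 (opposite Aktip and Gm45464) and Rbbp4 (opposite Sync) stood at -1.08 ± 0.36, -0.94 ± 0.32 and -1.45 ± 0.49.

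Of 12 genes listed with the G1 cyclins and kinases 0 were higher (5.67% of all genes) and 2 lower (13.9%). The 2 were Ccnh (opposite Rasa1), which is not itself a G1 cyclin, at -1.77 ± 0.48 and Cdk4 (opposite Tspan31) at -1.19 ± 0.39. The D cyclins Ccnd1 and Ccnd3 (opposite Bysl) stood at -0.10 ± 0.23 and 0.40 ± 0.26. Of 14 brake genes 1 was higher (5.67% of all genes), Ccng2 at 0.70 ± 0.27, and 0 were lower (13.9%). With carnitine all 14 stood below 0 relative to palmitic acid, against 44.4% of all genes above 0, with a median of -0.50 and groups apart on the lower side for 8 (18.3% of all genes). Of the 14, 12 have no partner, where 23.3% of all such genes were above 0, and the groups of 6 of the 12 were apart on the lower side (25.9% of all such genes). Cdkn1a, the inhibitor p21 that accompanies myotube cell cycle exit, read 394, 396 and 634 CPM in control, 886, 578 and 577 CPM in palmitic acid and 406, 331 and 366 CPM with carnitine. Palmitic acid and palmitic acid + carnitine did not overlap, with a log2 difference of -0.89 ± 0.29 (edgeR adjusted p = 0.134), and control replicate 3 lay among the palmitic acid libraries. Cdkn1a lies opposite 1700023B13Rik. Cdkn1b, the inhibitor p27, stood at 0.31 ± 0.38 against control, and Cdkn1c had too few counts (25 in all). Ube2c, a mitotic ubiquitin-conjugating enzyme, stood at -0.67 ± 0.37, and its 150442 counts lie opposite the muscle gene Tnnc2.

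The marker lists bear on what cells the libraries hold. All 24 myotube markers were tested and none was at 0 in a library, with summed levels of 13370 to 17221 CPM in control, 18516 to 18820 CPM in palmitic acid and 14372 to 15632 CPM with carnitine. Of 14 myoblast and reserve cell markers 13 were in the table, with summed levels of 228 to 277 CPM in control, 317 to 404 CPM in palmitic acid and 249 to 278 CPM with carnitine. Both sums were highest in the 3 palmitic acid libraries. In that group 72.9% of all coding genes without a partner also had a log2 fold change above 0 against control. Pax7, the satellite cell factor, stood between 0 and 1.89 CPM. Summed fibroblast markers ran from 9004 to 16828 CPM and were highest in palmitic acid replicate 1. Only 2 adipocyte markers were in the table, and their sum did not exceed 3.78 CPM. The part of these markers in the values of the cell cycle genes was not tested.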

How the data were processed

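Stranded mRNA libraries of 9 C2C12 samples were measured, grouped by the treatment label, with replicate numbers from the titles. Per the file headers, the deposited table gives each gene's raw count and its FPKM in every sample. The authors' FPKM imply 1 length per gene in all samples to within 1.21e-14 of its value, and per the file headers the table names its genes and positions. The submitters' processing notes list, without roles, HTSeq 0.13.5, HISAT2 2.2.0, Bowtie2 2.4.2, Trim Galore 0.6.4 and edgeR, with Rnor_6.0, GRCm39 and GRCh38 as builds. The strand setting of the counting is not given in the sources used here, and per the labels' protocols the kit was a stranded one. Genes that overlap on the other strand are therefore uncertain.

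The deposited counts were tested with edgeR 4.0.16 under R 4.3.3 (glmQLFit and glmQLFTest, two-sided, TMM factors), after filterByExpr at its defaults, a count of 10 and a total of 15. All 9 libraries entered 1 fit with group as the factor, with Benjamini-Hochberg adjustment over 12548 genes and calls at an adjusted p under 0.05. CPM are counts per M counts of the TMM-scaled library, and mean log2 CPM used a prior count of 2. FPKM served to order genes by level and, with limma 3.58.1 on log2(FPKM + 1), as an alternative. DESeq2 1.42.0 was another. Other alternatives were edgeR with RLE factors, no filter, a replicate block, the library ratio as a covariate, genes without an opposite-strand gene alone, and libraries left out. The split of the cyclins into a class of their own was checked by an alternative added after seeing the data.

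Strand relations came from GENCODE M21, joined by gene ID for 22506 of 22831 genes. Of these 9510 coding genes had no gene opposite an exon (6098 tested), and 1711 noncoding genes lay opposite coding exons by at least 100 bp. Gene positions are those of the table (GRCm39). Promoter windows are RefSeq's on GRCm38.p6, matched by symbol, and no position was converted.

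The cell cycle genes, the classes and the other lists were chosen with earlier results of these data known. Per comparison the 3 genes with the smallest p in each class are given in full, and up to 3 of each other list, plus Cdkn1a, Cdkn1b, Cdkn1c, Ccnd1, Ccnd3, E2f1, Foxm1, Mybl2 and Ube2c. Any further gene was chosen once its values had been seen. The edgeR step was tested on simulated counts. Library totals of 2.31 to 5.14 M counts limit the precision of genes with few counts, and p-values and floors for 0 counts do not cover differences between cultures.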

Additional observations from a re-analysis of the deposited data

How the results depend on the processing

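In edgeR with TMM factors 0 genes passed in each comparison, and other settings gave other counts; the cause was not tested. Palmitic acid against control had 474 calls with DESeq2 (3 of them cell cycle genes), 1118 with no filter (4), 65 among genes without an opposite-strand gene (0), and 2369 without control replicate 3 and palmitic acid replicate 1 together (8). Leaving out 1 library gave 0 to 768 calls (0 to 5 cell cycle genes), the highest without control replicate 3. The same settings in palmitic acid + carnitine against palmitic acid gave 817 (2), 1366 (3), 66 (0) and 1685 (3), limma on FPKM gave 1, and leaving out 1 library gave 0 to 6. For palmitic acid + carnitine against control no filter gave 5, the 2 libraries left out together gave 9, and DESeq2 gave 0.

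For palmitic acid against control the mitotic median was 0.37 with limma on FPKM, 0.26 without both libraries and -0.14 among genes without an opposite-strand gene. Leaving out 1 library gave 0.040 to 0.29. The replication median was 0.96 without both libraries and 0.25 to 1.05 with 1 library left out. The cyclin and Cdk1 median was -0.086 with limma and -0.84 to -0.37 with 1 library left out. With carnitine added to palmitic acid the replication median was -0.010 among genes without an opposite-strand gene and 0.13 with the ratio covariate. The mitotic median was -0.25 with limma, 0.24 among genes without an opposite-strand gene, -0.17 with the covariate and 0.0028 to 0.38 with 1 library left out, and the cyclin and Cdk1 median was -0.33 with limma and -0.26 to 0.28 with 1 library left out. For palmitic acid + carnitine against control, without both libraries, the medians were 0.62 (replication), -0.41 (cyclin and Cdk1) and 0.45 (mitotic), and with 1 library left out 0.027 to 0.52, -0.40 to -0.084 and 0.19 to 0.47.

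Of the genes given in full, some changed sign for palmitic acid + carnitine against palmitic acid with the covariate (Mcm7 -0.085, Tyms 1.34, Ccne2 -0.022, Kif20a -0.039) and without palmitic acid replicate 1 (Tyms 0.23, with a range from -1.36 when 1 library was left out). For palmitic acid + carnitine against control, Ccna2 (-0.07 with all libraries) did so without control replicate 1 (0.03), control replicate 2 (0.22) or palmitic acid + carnitine replicate 1 (0.15). Over all 33 tested cell cycle genes, 11 changed sign in palmitic acid against control, 14 in palmitic acid + carnitine against palmitic acid and 18 in palmitic acid + carnitine against control when some 1 library was left out. Among them, in the last comparison, Ccnb2 was -0.09 and Mcm2 -0.14 without control replicate 2. Same-numbered libraries deviated together in 3 of 9 pairs above a correlation of 0.1 (range -0.39 to 0.26). The labels state no pairing by number. These correlations of deviations from group means of few libraries cannot decide whether samples were paired. With the replicate block 0 genes passed in palmitic acid against control, and the replication median was 0.46. With the cyclin E genes counted among replication and the other cyclins and Cdk1 among mitosis, the medians for palmitic acid against control were 0.48 and 0.03. The depth limits all genes with few counts, such as Cdc6.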
